A study of Homo sapiens with 2 samples.

Results

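PGD, TKT, TALDO1, ME1, TXNRD1, GCLC, GCLM, SLC7A11 and NQO1 are 9 genes of glutathione synthesis, NADPH supply and the pentose phosphate pathway that the transcription factor NRF2 can activate. They were taken by name from the 33538 genes in the count matrix of a single-cell CRISPR screen, with earlier results of these data known. All 9 were present, and 7 of them passed the minimum level of 50 counts per 1000000 UMIs (CPM) that was set for comparing genes. ME1 and GCLC lay just under that minimum, and their values are given throughout but are not part of the counts of genes.

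NRF2, encoded by NFE2L2, is held at a low level by KEAP1, which presents it to a CUL3 and RBX1 ubiquitin ligase. When KEAP1 is blocked by electrophiles or lost, NRF2 enters the nucleus, pairs with a small MAF protein and binds antioxidant response elements beside its target genes. Its targets make NADPH, spend it to reduce thioredoxin, glutathione and quinones, and import the cysteine from which glutathione is made. A549, a lung adenocarcinoma line, carries a KEAP1 mutation and is a common model of a constitutively active NRF2 programme.

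The screen used A549-TetOn-Cas9 cells, in which Cas9 is inducible, and a lentiviral pool of 120 gRNAs at a low multiplicity of infection (0.3), in which 25 genes were each targeted by 4 gRNAs and 20 gRNAs had no target. After puromycin selection, 2 days of Cas9 induction and 5 further days of growth, the pooled cells were captured together. A transcriptome library and a gRNA library were made from the same cDNA, and the matrix joins them by cell barcode. There was 1 culture and 1 capture, so no value below has a replicate, no test across conditions was possible, and every interval is an exact 95% interval for counting error only.

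The matrix held 5744 cells and 210519208 transcriptome UMIs, with 513 to 161719 UMIs per cell and a median of 34625. A cell was placed in a pool where exactly 1 gRNA had more than 3 UMIs, which gave 2493 cells in 25 target pools of 20 to 190 cells and 696 non-targeting cells. All pools, and all comparisons between them, share these non-targeting cells. In the pools, the mRNA of the targeted gene ranged from a log2 ratio of -0.93 for KAT2B to 0.22 for MVD against non-targeting cells, and Cas9 cuts need not lower it. KAT2B had only 2.88 CPM over all cells and MVD 20.4 CPM, so both ends are ratios of low levels. Epithelial keratins marked the cells, with KRT18 at 7480 CPM and KRT8 at 2990 CPM, but the epithelial adhesion genes EPCAM and CDH1 were low, at 4.69 and 9.87 CPM. Of other cell types, 13 of 16 markers of fibroblasts, immune cells and endothelium had 0 to 28 UMIs in the whole matrix, with CD3D, CD3E and CLDN5 at 0 and PTPRC and VWF at 1. The other 3 were CD68 (8528 UMIs), COL1A1 (776 UMIs) and LUM (489 UMIs). The alveolar genes NKX2-1, SFTPB and SFTPC had 1 to 29 UMIs, so the lung origin of the line was not visible in them.

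The antioxidant response element has the core TGACNNNGC, and the members' promoters were searched for it on both strands to show where in these genes such letters lie. RefSeq windows on GRCh38.p14, from 250 bases before each start to 50 after it, were at hand for 8 of the 9 genes, with 2 windows for TXNRD1, and SLC7A11 was not matched. The core stood in 5 of these 9 windows, of PGD, ME1, TXNRD1 (both starts) and GCLM, and in 13.3% of all 35116 windows. No match was found in the windows of TKT, TALDO1, GCLC and NQO1, which says only that these letters are not in the 300 bases searched. The matches upstream of a start are shown on the gene's strand with the core, or its reverse complement, in capitals.
PGD, chr1:10398842-10398892, plus strand, core from 201 bases before the start: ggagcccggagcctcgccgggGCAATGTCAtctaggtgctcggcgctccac
ME1, chr6:83431159-83431209, minus strand, core from 137 bases before the start: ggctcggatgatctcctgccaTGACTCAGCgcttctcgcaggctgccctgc
TXNRD1, first window, chr12:104215659-104215709, plus strand, core from 99 bases before the start: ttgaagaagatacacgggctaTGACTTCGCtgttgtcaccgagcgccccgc
TXNRD1, second window, chr12:104286909-104286959, plus strand, core from 102 bases before the start: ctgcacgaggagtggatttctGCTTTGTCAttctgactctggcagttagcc
GCLM, chr1:93909435-93909485, minus strand, core from 34 bases before the start: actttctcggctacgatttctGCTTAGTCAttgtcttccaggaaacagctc
ME1 and the first window of TXNRD1 each held 1 further match. In ME1 it began at base 12 counted from the start, and in TXNRD1 8 bases before the start. The screen did not measure binding, and these matches are a description of the reference sequence.

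The members were expressed over a wide range of levels, and TKT and NQO1 stood at the top. Counts are 3' UMIs, 1 per captured transcript, so CPM is not scaled by transcript length, but the order of genes also carries how well each 3' end is captured. TKT, the transketolase that exchanges 2-carbon units between sugar phosphates, had 1964 CPM (interval 1958 to 1970) over all cells and was the 79th most abundant of all genes. NQO1, which reduces quinones with NAD(P)H, followed with 1142 CPM (1138 to 1147). The 2 genes did not overlap in their counting intervals with each other or with any other member.

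TXNRD1, the cytosolic thioredoxin reductase, had 620.3 CPM (617 to 624), and TALDO1, the transaldolase of the same sugar exchanges as TKT, had 572 CPM (568 to 575). PGD, which makes NADPH in the oxidative branch by decarboxylating 6-phosphogluconate, had 339 CPM (336 to 341). These 3 had a UMI in 96.4% to 98.1% of cells, so few cells lacked them. Much lower were the glutathione genes. GCLM, the modifier subunit of glutamate-cysteine ligase, had 135 CPM (134 to 137), SLC7A11, the cystine transporter, had 89.5 CPM (88.2 to 90.8), and GCLC, the catalytic subunit of that ligase, had 42.4 CPM (41.5 to 43.2). ME1, the cytosolic malic enzyme that makes NADPH from malate, had 49.9 CPM (48.9 to 50.8). Each of these intervals was clear of its neighbours, and a UMI of GCLC was found in 67.2% of cells against 90.7% for GCLM.

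**Figure D1:**
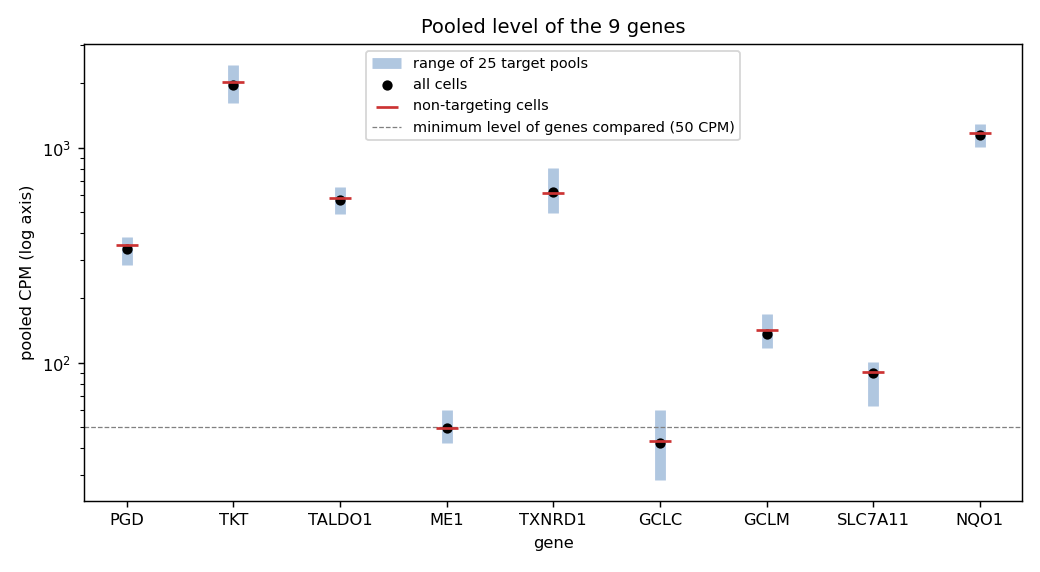
Pooled level of the 9 genes in CPM on a log axis, with all 5744 cells as a dot, the 696 non-targeting cells as a red dash and the range over 25 target pools as a bar. TKT at 1964 CPM and GCLC at 42.4 CPM mark the ends, and the bars of the pools are short beside the distance between most genes.

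Cells with and without a detected gRNA had nearly the same levels. Over the 2269 cells in which no gRNA passed 3 UMIs, the 9 genes lay between -0.044 (SLC7A11) and 0.017 (TKT) of their all-cell level on the log2(CPM + 1) scale. The 286 cells with 2 or more gRNAs, which can hold doublets, had 44524 UMIs at the median and lower TALDO1 (480.1 CPM, -0.25), NQO1 (987 CPM, -0.21) and TKT (1735 CPM, -0.18), with SLC7A11 at 99.0 CPM (0.14).

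The 427 barcodes under 10000 UMIs differed more. There TALDO1 was at 257 CPM against 575 CPM in the deeper cells, NQO1 at 585 against 1148 and TKT at 1189 against 1972, while SLC7A11 was at 164 CPM against 88.7. TXNRD1, GCLM and PGD were 547, 120 and 304 CPM in these barcodes, and GCLC was 44.2 CPM. SLC7A11 thus stood apart from the pentose phosphate genes in the direction of this difference. The shallow barcodes had a median of 5163 UMIs and a median mitochondrial share of 13.3%, against 36183 UMIs and 12.2% in the deeper ones, and the part of cell state or quality in the difference was not tested.

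Among cells, NQO1, TKT and TXNRD1 varied well beyond counting noise. To put cells on 1 depth, each of the 5317 cells with 10000 or more UMIs was thinned to 10000 UMIs, and the variance over the mean of a gene was taken, which is about 1 for counting noise alone. It was 3.75 for TKT, 3.07 for TXNRD1 and 2.90 for NQO1, beside a median of 1.12 over the 2435 genes at 50 CPM or more and a 90th percentile of 1.88. Because this ratio rises with the level, each gene was also set beside all genes within 1.5 times its own CPM. The median of these like genes was 2.25 for TKT, 1.51 for TXNRD1 and 1.73 for NQO1.

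TXNRD1 had 2, 5 and 12 thinned UMIs at the 10th percentile, the median and the 90th percentile of cells, and up to 34. NQO1 had 5, 11 and 19, and TKT 10, 20 and 32. For PGD, TALDO1, GCLM, SLC7A11 and GCLC the ratio was 1.41, 1.59, 1.38, 1.27 and 1.22, against 1.27, 1.45, 1.12, 1.09 and 1.05 among like genes. ME1 was at 1.08 against 1.06. All 9 ratios were therefore above the median of genes of like level, by the least for ME1.

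The members varied together between cells, though not as 1 block. Co-expression was measured as Pearson's r of log-normalized counts (natural log of 1 plus counts per 10000) over the 5317 deeper cells, which share 1 library and differ in depth. The 36 pairs of members had a median r of 0.15 and ran from -0.059 to 0.55. Of these, 25 reached an r of 0.1 or more, 69.4% of the pairs, where 15.8% of all 2963395 pairs of genes at 50 CPM or more did so, and the median r of all pairs was 0.023. ME1 and GCLC are among the 9 here although they miss that level. The pairs of all genes were not matched to the members by level. The share of genes with r of 0.1 or more with a member ran from 1.23% for ME1 to 34.0% for TALDO1. It was 28.2% for NQO1 and 24.5% for TKT.

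The tightest members were TALDO1 and NQO1, with r at 0.55. NQO1 also had r of 0.41 with TKT and 0.39 with PGD. Within the pentose phosphate genes, r was 0.39 for PGD with TKT, 0.35 for TKT with TALDO1 and 0.23 for PGD with TALDO1. The 5 pairs with the highest r all lay among these 3 genes and NQO1.

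The glutathione genes and TXNRD1 formed a weaker group. TXNRD1 had r of 0.27 with GCLM, 0.22 with GCLC and 0.21 with SLC7A11, and the 2 subunits of glutamate-cysteine ligase had r of 0.22 with each other. The median r within GCLC, GCLM and SLC7A11 was 0.16, and between them and the 3 pentose phosphate genes it was 0.11. GCLM bridged the groups, with r of 0.31 with PGD and 0.25 with NQO1. It and PGD were the members with r of 0.1 or more with all 8 others.

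SLC7A11 followed TKT, TALDO1 and NQO1 least of the members. It had r of -0.059 with TKT, -0.042 with TALDO1 and 0.013 with NQO1. TXNRD1 was next lowest with TKT, at 0.017, while GCLC was next lowest with TALDO1, at 0.065, ahead of ME1 and TXNRD1, both at 0.10. TKT, TXNRD1 and NQO1 averaged 20.7, 6.05 and 11.8 thinned UMIs per cell, and SLC7A11 averaged 0.924. GCLC and ME1, at 0.436 and 0.495 thinned UMIs per cell, had no r above 0.22 and 0.15 with any member, and counts this sparse lower any r.

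**Figure D2:**
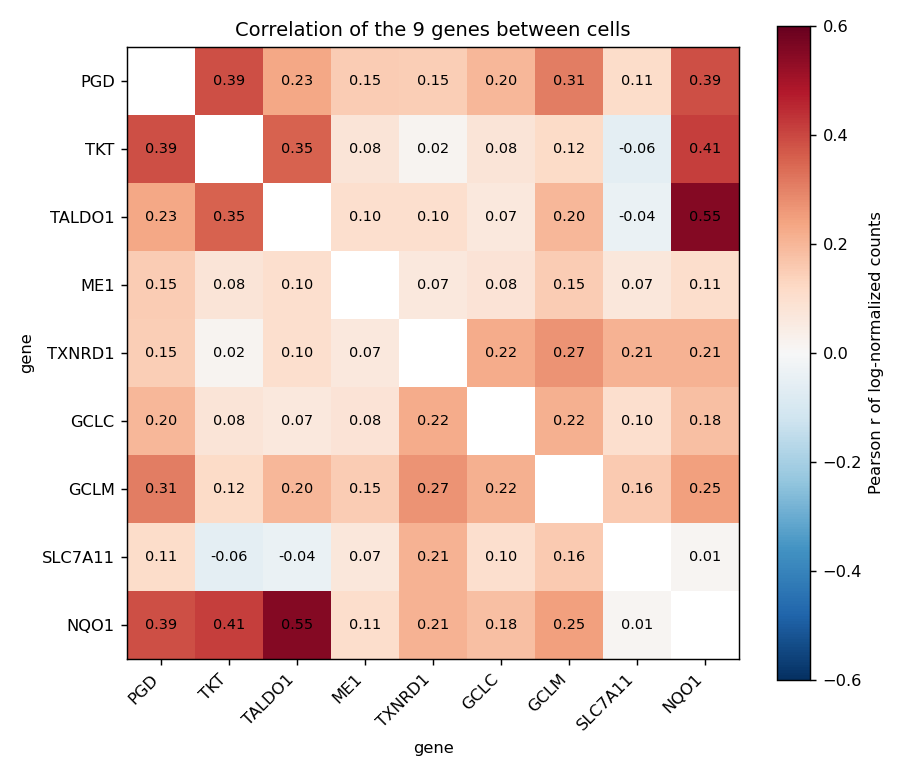
Pearson r of log-normalized counts for each pair of the 9 genes over 5317 cells with 10000 or more UMIs, written in each cell of the map and coloured from blue (below 0) to red (above 0). The deepest red is TALDO1 with NQO1 at 0.55, and SLC7A11 is near 0 or below it with TKT, TALDO1 and NQO1.

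The median r was much the same in subsets of cells, but single pairs moved. The median r of the 36 pairs was 0.15 in the 650 non-targeting cells of that depth and 0.17 in the 2021 without a gRNA. It was 0.16 in the 4927 cells with 20000 or more UMIs, 0.16 given log10 total UMIs, 0.15 given the S phase and G2/M lists and 0.15 given the mitochondrial share. In those same settings the median over all pairs of genes lay between 0.013 and 0.029. In the cells with 20000 or more UMIs, r of TKT with TALDO1 was 0.26 instead of 0.35. SLC7A11 there had r of 0.019 with TALDO1 and 0.059 with NQO1. In non-targeting cells, r of GCLM was 0.11 instead of 0.20 with TALDO1 and 0.25 instead of 0.15 with ME1. TALDO1 with NQO1 stayed the highest pair in each setting. With every cell thinned to 10000 UMIs, the median of the members dropped to 0.071 and 13 pairs reached 0.1, while the median of all pairs was 0.0065 and 2.73% of them reached 0.1. Single members tracked these measures a little. TKT had r of -0.15 with log10 total UMIs and -0.16 with the G2/M list, and TALDO1 and TXNRD1 had r of -0.22 and -0.21 with the mitochondrial share, against 0.10 for SLC7A11.

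The genes outside the 9 with the most similar pattern, by mean r with the 9 members, were aldo-keto reductases and redox enzymes. Among the 10 nearest were, in order, AKR1B10 (0.30), TXN (0.28), AKR1C2, BLVRB, PTGR1, AKR1C3, PRDX1, AKR1C1 and CTSL (0.23). TXN is the thioredoxin that TXNRD1 reduces, and PRDX1 is a peroxidase fed by thioredoxin. Of the 10, 8 stood in the list of other NRF2 targets used below, PTGR1 and CTSL being the others. That list holds 21 of the 2435 genes compared, but it was chosen with earlier results of these data known, so the overlap is not independent support.

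The members leaned to different neighbours. NQO1 was closest to TXN (r of 0.57) and TALDO1 to PRDX1 (0.60), while PGD was closest to AKR1C2 (0.45) and TKT to ALDH1A1 (0.48). TXNRD1 was closest to SQSTM1 (0.50), the autophagy receptor that also binds KEAP1, and AKR1B10 and AKR1C2 had r of only 0.036 and 0.0097 with it. SLC7A11 and GCLC were closest to TXNRD1 (0.21 and 0.22), GCLM to AKR1B10 (0.33) and ME1 to AKR1C2 (0.18). PRDX1 ran from 0.60 with TALDO1 to -0.12 with SLC7A11, the widest range among the 10 nearest genes.

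At the other end, the 10 genes with the lowest mean r were PMEPA1 (-0.18), C12orf75 (-0.16), PDLIM7, TPM1, RPL41, AXL, TNFRSF12A, RPL28, RPS21 and S100A16 (-0.11). PMEPA1, a gene induced by TGF-beta signalling, had r of -0.37 with TXNRD1 and -0.34 with NQO1 but 0.010 with TKT. TPM1, an actin-binding tropomyosin, had r of -0.30 with NQO1 and -0.046 with TKT.

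To average the other genes over many cells, the deeper cells were ranked by NQO1 CPM, cut into 5 bins of 1063 or 1064 cells, and each bin was pooled. The ranking used the NQO1 CPM of single cells, so its noise still shaped the bins. NQO1 itself, which made the ranking, went from 554 to 1931 CPM. TALDO1 rose through 410.2, 538, 598, 645 and 710.2 CPM from the lowest bin to the highest, 1.73 times (interval 1.70 to 1.76). GCLC went through 32.9, 36.1, 40.6, 48.6 and 56.0 CPM (1.70 times, 1.59 to 1.82). PGD went from 261 to 437 CPM (1.68 times) and GCLM from 103 to 171 CPM (1.65 times), each higher in every further bin.

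TXNRD1 went from 532 to 782 CPM (1.47 times, 1.44 to 1.49), TKT from 1563 to 2208 CPM (1.41 times) and ME1 from 44.4 to 57.7 CPM (1.30 times, 1.22 to 1.38). SLC7A11 did not follow the order, at 89.96, 77.3, 86.5, 89.4 and 103 CPM. Calling a log2 ratio of 0.32 or more higher and of -0.32 or less lower, 5 of the 6 members at 50 CPM or more other than NQO1 were higher in the highest bin, where 12.1% of 2434 genes were, and 0 of 6 were lower, where 6.61% were. The exception was SLC7A11, at 0.19. GCLC, whose r with NQO1 was only 0.18, had a ratio between outer bins about as large as that of PGD. The highest bin had a median of 32483 UMIs per cell against 38353 in the lowest, a mean of the G2/M list of 0.28 against 0.34 and a median mitochondrial share of 12.1% against 12.6%, and their part was not tested.

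Ranked by TXNRD1 instead, the glutathione genes followed and the pentose phosphate genes did so little. TXNRD1 went from 230.5 to 1190 CPM between the outer bins. GCLC went through 32.5, 35.1, 38.1, 45.05 and 59.2 CPM (1.82 times, 1.70 to 1.95), GCLM from 105 to 167 CPM (1.60 times) and SLC7A11 through 71.0, 77.6, 88.6, 96.0 and 108 CPM (1.52 times, 1.45 to 1.59). NQO1 was 1.29 times higher, PGD 1.17 times, ME1 1.16 times and TALDO1 1.10 times. TKT had 1944 CPM in the lowest bin and 1923 in the highest, a ratio of 0.989 (0.979 to 0.999).

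Of the 6 members at 50 CPM or more other than TXNRD1, 3 were higher in the highest bin by TXNRD1, namely GCLM, SLC7A11 and NQO1, where 8.26% of genes were, and 0 were lower, where 5.30% were. Between the rankings, SLC7A11 was 1.14 times higher by NQO1 and 1.52 times by TXNRD1, and TALDO1 was 1.73 and 1.10 times higher. Here the highest bin was the deeper one, with 38886 UMIs per cell against 32765. Its mean of the G2/M list was 0.28 against 0.39, and its median mitochondrial share was 11.1% against 12.9%, and their part was not tested either.

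**Figure D3:**
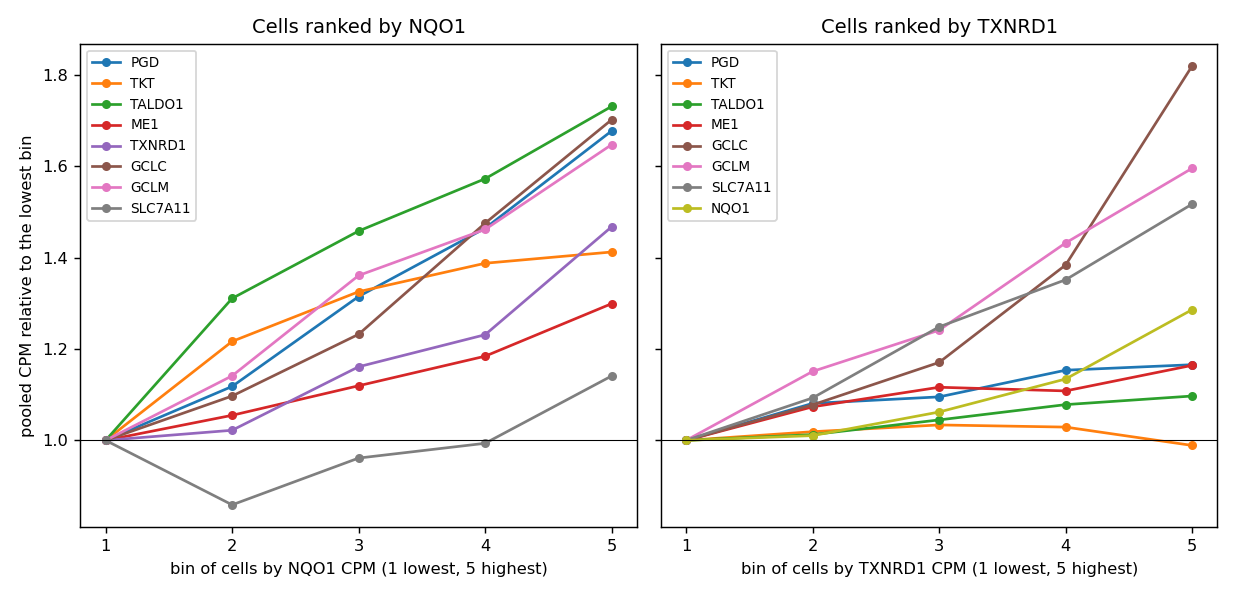
Pooled CPM of each gene relative to the lowest of 5 bins of cells, over the 5317 deeper cells ranked by NQO1 (left) or TXNRD1 (right); the ranking gene is left out. SLC7A11 is the lowest line on the left and ends at 1.52 on the right, whereas TALDO1 ends at 1.73 on the left and 1.10 on the right.

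Of the other genes of the pathway, the remaining NRF2 targets followed the members most closely. In that list 21 of 29 genes had 50 CPM or more, and the median of their mean r with the members was 0.17, from 0.087 for GPX2 to 0.30 for AKR1B10. Its 4 most abundant genes were the ferritin chains FTL (30935 CPM) and FTH1 (17221 CPM), TXN (1907 CPM) and PRDX1 (1739 CPM). FTL had r of 0.32 with TXNRD1, 0.28 with PGD and 0.28 with GCLM but -0.069 with TKT. HMOX1, heme oxygenase, had its highest r with GCLM at 0.29.

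The further enzymes of the same reactions followed less. For 8 of 14 glutathione genes the median was 0.058, and GSTP1 (1874 CPM), a glutathione transferase, had r of 0.50 with TALDO1 and -0.11 with SLC7A11. SLC3A2, the heavy chain with which SLC7A11 forms the cystine transporter, had 513 CPM and r of -0.031 with it. The 4 further pentose phosphate and NADPH genes with 50 CPM, of 13, had a median of 0.036, with PGLS, the lactonase that acts just before PGD, at 0.054. The 6 of 10 thioredoxin genes had a median of 0.074.

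NFE2L2 itself had 68.7 CPM, with r from 0.051 with ME1 to 0.19 with TXNRD1, and its inhibitor KEAP1 had 24.4 CPM. MAFG, the small MAF with most counts, had 60.1 CPM and r of 0.088 with TXNRD1 and -0.0046 with NQO1. RBX1 had 166 CPM and r of -0.14 with SLC7A11 and 0.24 with TALDO1. ATF4, which also activates SLC7A11, had 91.5 CPM and r of 0.052 with it, and 3 of the 16 genes in the list of ATF4 targets, ATF4 included, reached 50 CPM.

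In the target pools the members differed little from non-targeting cells. The gRNA counts used for the pools do not tell mutant gRNAs from intact ones. The paper reports that some cells given an intact gRNA by Cell Ranger in fact carried a mutant gRNA or were multiplets. It also found that mutant gRNAs appear to be dysfunctional. The pools can therefore hold cells without a working gRNA, and how far this reduced the ratios was not tested. Values are log2 ratios of pooled CPM with 1 CPM added, and genes were called past a log2 ratio of 0.32 either way. Of 175 values for 7 members in 25 pools, 1 was higher, 0.571% of them, where 1.44% of all gene and pool values were, and 2 were lower, 1.14%, where 2.97% were. These shares are not above the background. For scale, in 15 single non-targeting gRNAs of 13 to 134 cells, each set against the other non-targeting cells, 1 of 105 values of the members was higher (4.45% of all genes) and 7 were lower (6.47% of all genes).

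The single value called higher was TXNRD1 in the pool of SMARCD1, a subunit of the SWI/SNF chromatin remodelling complex. TXNRD1 had 496 CPM in the lowest pool, TUBB1, 630.5 in the median pool and 801 in the SMARCD1 pool, against 613 in non-targeting cells. The SMARCD1 value was a log2 ratio of 0.39, or 131% of the non-targeting level (125% to 136%), from 2574 UMIs of 86 cells. The CPM by gRNA was 617 (6 cells), 767 (26 cells), 855 (36 cells) and 797 (18 cells), so 3 gRNAs lay above non-targeting cells beyond counting error and the smallest did not. Without its gRNA3 the value was 0.316, just short of the call.

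A single non-targeting gRNA of 17 cells had a TXNRD1 value of 0.58, above that of the SMARCD1 pool. In an added comparison, the 5 with 50 or more cells reached at most 0.14, below the SMARCD1 pool. In the same pool GCLC had 60.1 CPM against 43.5, a log2 ratio of 0.46 from 193 UMIs, with single gRNAs between 0.094 and 1.18. SQSTM1 was at 0.28, the 9 members lay between -0.20 and 0.46, and their median was -0.032. Of the 7 members at 50 CPM or more, 1 was called higher in this pool, where 0.739% of genes were. The pool was picked for that call, so its share of members cannot be compared with the share of all genes.

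SLC7A11 gave both values called lower. It had 63.2 CPM in the pool of DNMT1, the maintenance DNA methyltransferase, 68.9 CPM in that of the de novo methyltransferase DNMT3B, 91.3 CPM in the median pool and 101 CPM in the highest, ATAD2, with 90.8 CPM in non-targeting cells. The DNMT1 value was a log2 ratio of -0.52, or 69.6% of the non-targeting level (59.1% to 81.5%), from 167 UMIs of 82 cells. By gRNA, SLC7A11 was at 99.8 CPM in 11 cells, 64.5 CPM in 11 cells and 55.6 CPM in 60 cells. The low value came mainly from 1 gRNA, and without it, with 22 cells left, the log2 ratio was -0.18.

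In the DNMT1 pool 1 of 7 members was lower, where 4.07% of genes were, but this pool too was picked for its call. The other members there lay between -0.27 (GCLM) and 0.14. Among the other NRF2 targets of that pool, AKR1B10 (-0.54), AKR1C1 (-0.65), AKR1C2 (-0.37), AKR1C3 (-0.61) and GPX2 (-0.65) were called lower, 5 of 21 genes, and HMOX1 (0.69) higher; these were named after their values were seen. For DNMT3B, SLC7A11 was at -0.39 (75.9%, 59.5% to 95.5%), from 75 UMIs. The lowest single non-targeting gRNA, of 15 cells, had SLC7A11 at -0.76, below both pools.

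Among the pentose phosphate genes no value was called. TKT ran from 1613 CPM in the pool of HELLS, a chromatin remodeller that aids DNA methylation, through 1974 CPM in the median pool to 2431 CPM in the pool of DNMT3A, against 2010 CPM in non-targeting cells. The ends were log2 ratios of -0.32, just inside the call, and 0.27. In the HELLS pool all 4 gRNAs were below non-targeting cells, at 798 (2 cells), 1825 (3 cells), 1478 (21 cells) and 1808 CPM (26 cells), and the second of these was within its counting error. This pool had the highest median depth, 43390.5 UMIs per cell against 33581.5 in non-targeting cells, and TKT had r of -0.15 with log10 total UMIs. With the mean over cells of CPM its log2 ratio was -0.22, and the part of depth was not tested. In the DNMT3A pool the 4 gRNAs were between 2356 and 2989 CPM, all higher, but in 20 cells together.

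PGD ran from 286 CPM (DNMT3B, -0.30) through 336 to 385 CPM (UHRF1, 0.13), and TALDO1 from 492 CPM (SUV39H1, -0.24) through 576 to 654 CPM (DNMT3A, 0.17). ME1 ran from 42.3 CPM (DNMT3B, -0.23) through 50.4 to 60.0 CPM (TRMT112, 0.27), and the last rested on 53 UMIs. Without gRNA4 of TRMT112, ME1 there turned to -0.46. The spread of these values over pools was an SD of 0.13 for PGD, 0.099 for TALDO1 and 0.12 for ME1. Over single non-targeting gRNAs the SD was 0.18, 0.12 and 0.25. Most of those gRNAs had fewer cells than the median pool of 86, and fewer cells widen the spread. The SDs here and below therefore cannot show whether pools vary less than non-targeting gRNAs.

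Of the glutathione genes and NQO1, GCLC had the widest spread and NQO1 the narrowest. GCLC ran from 28.5 CPM (DNMT3B, -0.59) through 42.5 to 60.1 CPM, with 43.5 in non-targeting cells. Its low values in the DNMT3B, TRMT112 and DNMT3A pools rested on 31, 26 and 23 UMIs, and the interval of the last (47.2% to 113%) included the non-targeting level. In the pool of DHODH, an enzyme of pyrimidine synthesis, GCLC was at 0.46 from 79 UMIs, with single gRNAs from -0.46 to 1.11. The SD of GCLC was 0.25 over pools and 0.40 over single non-targeting gRNAs.

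GCLM ran from 117 CPM (DNMT1, -0.27) through 136 to 168 CPM (UHRF1, 0.24), against 141 CPM. NQO1 ran from 1012 CPM (RPL18, -0.22) through 1144 to 1287 CPM (DNMT3A, 0.13), against 1175 CPM, and its SD was 0.092 over pools and 0.097 over single non-targeting gRNAs. The TXNRD1 value in the pool of TUBB1, a tubulin with 0.019 CPM in these cells, was -0.30 (81.0%, 77.1% to 85.0%), from 1838 UMIs of 93 cells, and its 3 gRNAs with cells were each below non-targeting cells, that with 6 cells within counting error.

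**Figure D4:**
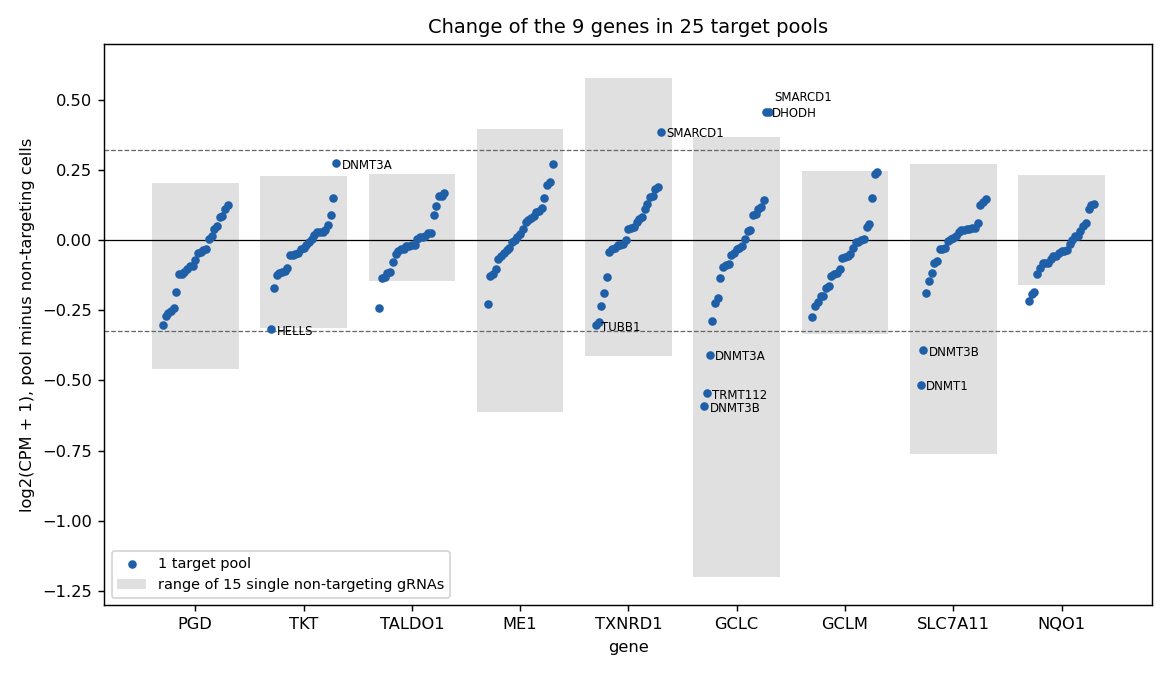
Log2 ratio of pooled CPM (1 CPM added) of each gene in 25 target pools against non-targeting cells, 1 dot per pool in rising order, with the range of 15 single non-targeting gRNAs in grey and the call at 0.32 either way dashed. Most dots lie inside the grey ranges, and the named dots include TXNRD1 in the SMARCD1 pool at 0.39 and SLC7A11 in the DNMT1 pool at -0.52.

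Beside the 15 non-targeting gRNAs taken singly, 1 of 175 values lay above all of them (TKT in the DNMT3A pool), 0.571%, where 1.87% of all values did. Below all of them were 5 values, 2.86%, where 2.43% of all values were. They were TKT in the HELLS pool, TALDO1 in the SUV39H1 pool, and NQO1 in the RPL18, SUV39H1 and TDG pools (-0.22, -0.19 and -0.18). The members were again near the background. Single gRNAs mostly had fewer cells than the pools, and against the 5 of them with 50 or more cells, an added comparison, 16 values lay above and 39 below, 9.14% and 22.3%, where 13.7% and 16.6% of all values did. For most members the non-targeting cells stood slightly above the all-cell level, as given below, and that offset enters these counts.

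**Figure D5:**
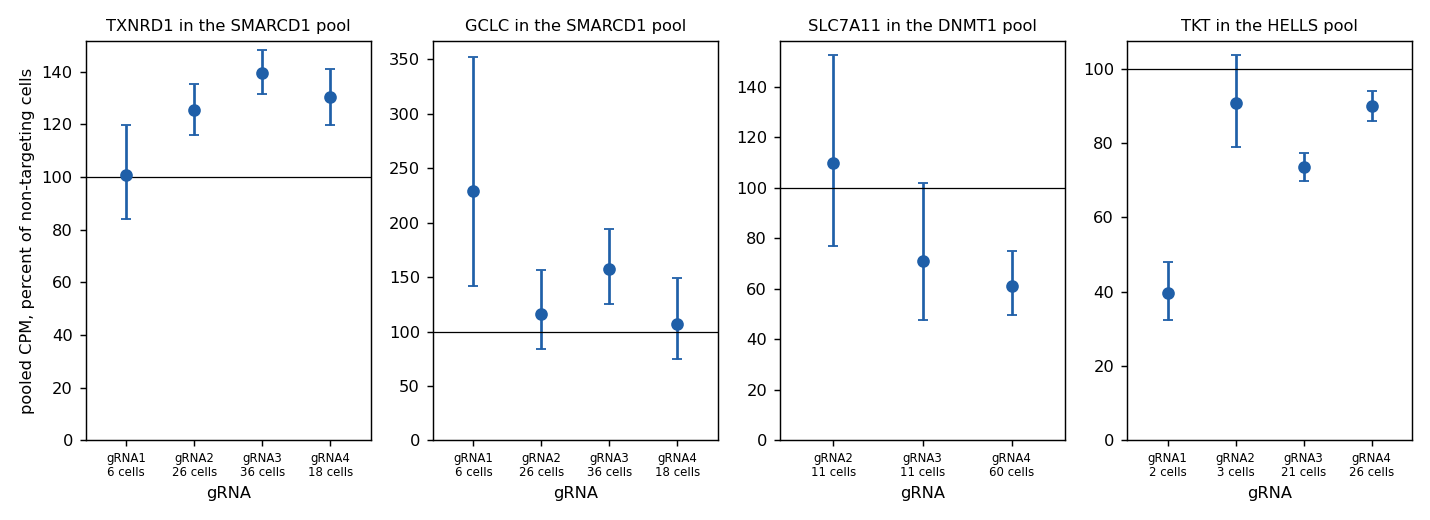
Pooled CPM as a percent of non-targeting cells for each gRNA of 4 gene and pool combinations, with exact 95% intervals for counting error; cells per gRNA stand under each point. TXNRD1 in the SMARCD1 pool lies above 100% for 3 of 4 gRNAs beyond counting error, SLC7A11 in the DNMT1 pool is lowest for the gRNA with 60 cells, and TKT in the HELLS pool is below 100% for all 4.

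In some pools most of the 9 genes lay to 1 side of the non-targeting cells by a small amount. The non-targeting cells, shared by all pools, were themselves above the all-cell level for most members, at most by 0.063 (GCLM) on the log2 scale. They were below it for ME1 (-0.0070) and TXNRD1 (-0.018). This offset enters the value of every pool. In the pool of UHRF1, the reader of hemimethylated DNA that recruits DNMT1, all 9 were above non-targeting cells, by 0.031 (TKT) to 0.24 (GCLM), with a median log2 ratio of 0.12 from 65 cells. The medians of the DNMT3A and DHODH pools were 0.11 and 0.060, with 6 and 8 of 9 genes above 0. The median over all genes compared was 8.3e-05, -0.023 and -0.015 in these 3 pools. In the UHRF1 pool GCLM was at 0.21 and 0.38 in the gRNAs with 31 and 29 cells, and without the latter the pool was at 0.085.

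The lowest medians were those of DNMT3B (-0.23, 35 cells), the histone methyltransferase SUV39H1 (-0.14, 79 cells) and the ribosomal protein RPL18 (-0.11, 46 cells), with 1, 1 and 2 of the 9 genes above 0. For RPL18 the median of all genes compared was itself -0.077. Medians over the 9 genes in single non-targeting gRNAs ran from -0.25 (15 cells) to 0.10 (30 cells). The UHRF1 and DNMT3A pools alone lay outside this range, but its ends rest on gRNAs with few cells. The non-targeting gRNAs of 51 to 134 cells had medians from -0.061 to 0.056. Only 5 gRNAs set this narrower range, and the DNMT3A, TRMT112, DNMT3B, DHODH and RPL18 pools, of 20 to 46 cells, were each smaller. Fewer cells widen the spread, so a place outside the range is not by itself a shift. How often other sets of genes fall outside it was not computed. The UHRF1, DNMT3A and DHODH pools lay above that narrower range. The DNMT3B, SUV39H1, RPL18, KAT2B, HELLS, TRMT112, DNMT1 and PCGF5 pools lay below it. Cell cycle genes moved in some of these pools. In the DHODH and DNMT3B pools the median log2 ratio of 25 G2/M genes was -0.67 and -0.58, against 0.097 for UHRF1, and the part of the cell cycle in the members' values was not tested.

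The other pathway genes were called in different shares from list to list. Of 525 values of other NRF2 targets, 20 were called higher, 3.81% against the 1.44% of all genes, and 22 lower, 4.19% against 2.97%. Of these, 6 and 5 were of GPX2, a glutathione peroxidase, and 7 and 10 of the aldo-keto reductases AKR1B10, AKR1C1, AKR1C2 and AKR1C3. TXN, PRDX1 and BLVRB, among the genes nearest to the members between cells, had no value called in any of 25 pools. The glutathione list had 6 of 200 values higher and 6 lower, 3% each way. The pentose phosphate and NADPH list had 2 and 2 of 100, 2% each way, and the thioredoxin list 0 and 3 of 150, all of RRM1, or 2% lower. Of NRF2 regulators, NFE2L2 had no value called, with its ends at -0.31 (HELLS) and 0.23 (DHODH), and SQSTM1 ran from -0.61 (DNMT3B) to 0.33 (HELLS). The ATF4 list gave 1 of 75 values higher and 11 lower, 14.7% against the 2.97% of all genes, and 8 of the 11 came from DDIT4.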

How the data were processed

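The study sequenced a 10x 3' single-cell transcriptome library and a gRNA library of 1 pool of A549-TetOn-Cas9 cells. The deposited matrix holds whole-number UMI counts per gene and gRNA and cell; per the file header and the labels, the authors made it with Cell Ranger 3.1.0 on GRCh38 and used Seurat 4.1.0 in R 4.2.0 downstream. It is the filtered matrix, all its 5744 barcodes were used, and no doublet caller was run here; cells with 2 or more gRNAs were left out of the pools.

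From the counts, cells were placed by exactly 1 gRNA above 3 UMIs, and counts were summed per pool. CPM divides by the transcriptome UMIs of those cells. A pool with 20 or more cells was set against all cells with 1 non-targeting gRNA as a log2 ratio of CPM, with 1 CPM added, over 2435 genes with 50 CPM or more, and a gene was called at 1.25-fold either way (0.32 on the log2 scale). Ratios have exact conditional intervals and levels exact Poisson or Clopper-Pearson ones, at 95%. PCR copies are collapsed by UMI, and intervals cover counting error only. With no replicate, p-values were not computed. Non-targeting gRNAs with 10 or more cells gave the spread. Correlations used log-normalized counts (scale 10000) of 5317 cells with 10000 or more UMIs. Pooled ratios and correlations were tested on simulated data with known changes.

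The genes named are the 9 members, the 10 highest and 10 lowest gene and pool values, each member's highest and lowest pool, the 3 pools with the highest and lowest medians, the 10 genes with the highest and lowest mean r, the nearest gene of each member, and up to 4 most abundant genes of each pathway list. KEAP1, HMOX1, GPX2, RRM1 and the aldo-keto reductases in single pools were picked out once their values were known. Some genes of these lists are not reported here by name. The members and lists were chosen with earlier results of these data known. Alternatives changed the gRNA call (above 10 UMIs, 80% of gRNA UMIs, a mixture model), the cells, the CPM added, the scaling, the minimum level and the measure of correlation. Python 3 with NumPy, SciPy, pandas and scikit-learn was used. Promoter windows came from RefSeq (GRCh38.p14).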

Additional observations from a re-analysis of the deposited data

How the results depend on the processing

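Counts of member values past the fold, 1 higher and 2 lower, were 1 and 5 with the mixture model for gRNA calls, 2 and 6 with the mean over cells of CPM, and 1 and 0 with a 200 CPM minimum. With no minimum level, and with a 20 CPM minimum chosen after seeing the data, both of which add ME1 and GCLC, they were 3 and 5, and 3 values instead of 1 lay above every single non-targeting gRNA. That count was 2 with gRNAs above 10 UMIs and 2 with 80% of the gRNA UMIs. The count below every single non-targeting gRNA, 5, was 0 with the mean over cells. Against the non-targeting gRNAs with 50 or more cells, also chosen after seeing the data, 16 lay above and 39 below. Thinning to 10000 UMIs per cell lowered the median r of member pairs from 0.15 to 0.071 and the pairs at 0.1 or more from 25 to 13. The causes of these differences were not tested, except that minimum levels change which members are counted. The other settings kept these counts and the median r within 1.5 times. Over the other pathway and epithelial lists, 45 values were higher and 55 lower, 43 and 55 with the mixture model and 41 and 44 with 10 CPM added. Leaving out 1 gRNA moved 12 of 78 named values beyond the counting interval of the full pool, and turned TXNRD1 in the DNMT3B pool from -0.29 to 0.19 without gRNA3, and ME1 in the TRMT112 pool from 0.27 to -0.46 without gRNA4. No paired analysis was possible because the series has 1 pool of cells and no replicate numbers. Depth limits GCLC and ME1 most, with 23 to 239 UMIs behind their pool values among the 20 most extreme.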
